A study of Rattus norvegicus with 6 samples.

Results

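Kinesin-1 is the motor that carries cargo along microtubules toward their plus ends, and it is built from a pair of heavy chains, which hold the motor domain, and a pair of light chains. The heavy chains are encoded by Kif5a, Kif5b and Kif5c: Kif5b is made in most tissues, the heart included, while Kif5a and Kif5c are known mainly from neurons. The light chains, of which Klc1 and Klc4 are described here as members, bind cargo adaptors through their tetratricopeptide repeats, and JIP1, the protein targeted in the study, is one of the adaptors they bind. Members were chosen by symbol: 5 of the 6 symbols asked for (Kif5a, Kif5b, Kif5c, Klc1 and Klc4) were found, with 1 row each, among 13843 rows of expression values, and Klc2 was not analysed here.

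Expression was measured by RNA sequencing in 6 libraries. The cells were neonatal rat ventricular myocytes (NRVM), heart muscle cells taken from newborn rats and kept in culture. The PE+TSA+shJIP1 group (2 libraries) received phenylephrine, TSA and a short hairpin RNA against JIP1. The PE+TSA group (2 libraries) received phenylephrine, TSA and a control hairpin, and the PE group (2 libraries) phenylephrine and the control hairpin, each for 3 days. Phenylephrine, an alpha-1 adrenergic agonist that makes cultured cardiomyocytes grow, was thus given to every culture. TSA, which the labels do not write out, usually stands for the histone deacetylase inhibitor trichostatin A. The labels also call the hairpin group a knockout. Strain, age in days and the independence of the cultures behind the libraries are not stated there, and the spread that p-values measure here may be technical.

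Levels are in FPKM (fragments scaled to transcript length and to the mapped total), which allows genes of different length to be set side by side. Steps of whole reads among the low values put the libraries with TSA at 0.72 to 1.34 times the depth of PE replicate 1. PE replicate 2 had 0.0482 of that depth, 20.8 times less, and listed 3667 features at 0 against 1407 to 1837 in the others. All 8 cardiomyocyte markers were above 1 FPKM in every library, with Tnnt2 the highest (1835 to 7215 FPKM). Mapk8ip1, the gene of JIP1, was at 1.80 and 3.65 FPKM in PE+TSA+shJIP1, 14.6 and 17.9 in PE+TSA and, in PE, 3.77 and 4.39. The libraries with the hairpin were thus the lowest of all for its target, although only narrowly below PE. The change against PE+TSA (-2.25 ± 0.34 SE on the log2(FPKM + 1) scale) had a limma adjusted p of 0.077. That against PE was -0.49 ± 0.34 (95% interval -1.32 to 0.34, limma adjusted p = 0.369).

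Kif5b, the widely expressed heavy chain, was the highest member in all 6 libraries. Its level was 313 and 169 FPKM in PE+TSA+shJIP1, 231 and 149 FPKM in PE+TSA, and 306 and 253 FPKM in PE. These levels stood above 96.0% to 98.0% of the 10359 features tested (those with a mean of at least 1 FPKM). Klc1, the light chain best known from neurons and brain, came second in all 6 libraries. It was at 103 and 125 FPKM in PE+TSA+shJIP1, 116 and 138 in PE+TSA and, in PE, 91.2 and 95.4. Klc4, a light chain with a less studied cargo range, stayed far lower, at 6.19 and 7.05 FPKM in PE+TSA+shJIP1, 6.12 and 6.02 in PE+TSA and, in PE, 7.68 and 6.46. Klc1 was 11.9 to 22.9 times as high as Klc4.

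The other heavy chains were low in PE and higher in both groups with TSA. Kif5a, whose human counterpart is mutated in hereditary spastic paraplegia, was at 2.69 and 4.70 FPKM in PE+TSA+shJIP1, 21.9 and 25.4 FPKM in PE+TSA, and 0.617 and 0.536 FPKM in PE. Kif5c, a paralog enriched in motor neurons and other neurons, was at 15.2 and 17.8 FPKM in PE+TSA+shJIP1, 5.25 and 7.31 in PE+TSA and, in PE, 0.756 and 0.603. For both genes the ranges of the 3 groups did not overlap, but their order differed: Kif5a was highest in PE+TSA and Kif5c in PE+TSA+shJIP1. By pairs of groups, 50.0% to 60.6% of all features did not overlap, and the share without overlap among all 3 groups was not counted. Among the lower members, Klc4 stood above Kif5a and Kif5c in PE, which lay within 1.13 to 1.23 times of each other. In PE+TSA, Kif5a stood above Kif5c and Klc4, whose ranges overlapped. In PE+TSA+shJIP1 the order was Kif5c, Klc4 and Kif5a, with no overlap between neighbours.

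**Figure D1:**
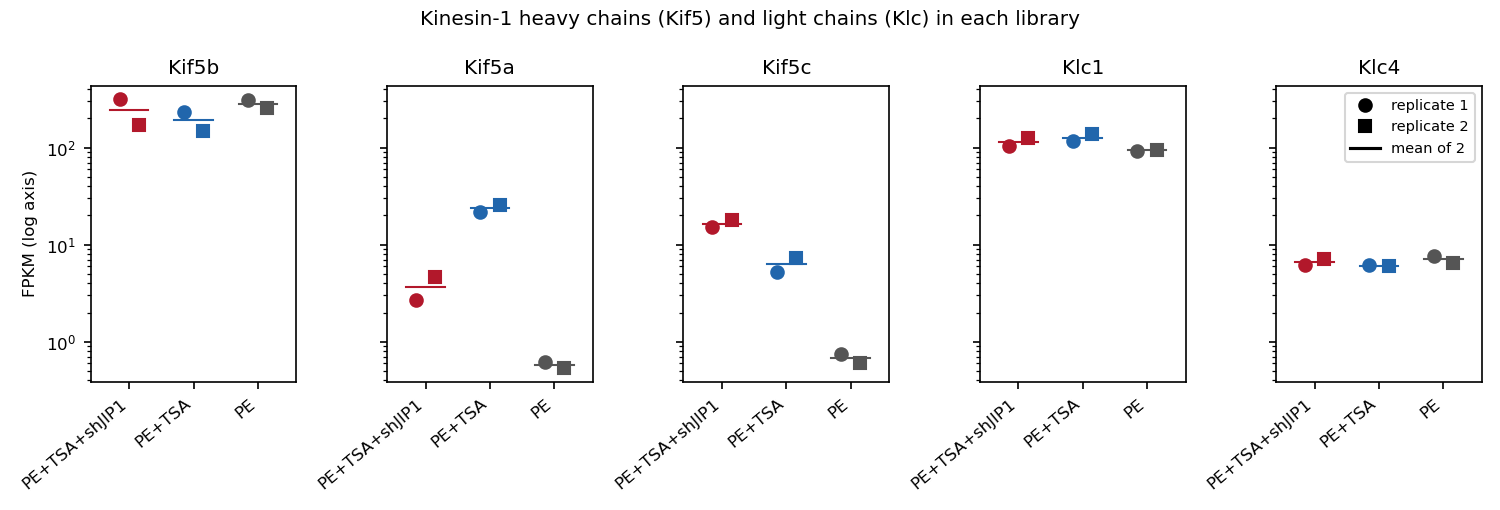
FPKM of the 5 members (log axis) in each library, by group; circles are replicate 1, squares replicate 2 and lines the mean of both. Kif5a peaks in PE+TSA at 21.9 and 25.4 FPKM and Kif5c in PE+TSA+shJIP1 at 15.2 and 17.8 FPKM, while Kif5b stays between 149 and 313 FPKM.

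Promoter sequences from RefSeq on the build GRCr8 were at hand for Kif5b, Kif5c, Klc1 (3 start sites), Klc2 and Klc4, but not for Kif5a; the submitters' processing notes name another build, rn6, for the expression values. The 250 bases before the start are shown for the highest member (Kif5b, chr17:56185136-56185385, plus strand). They are also shown for Kif5c, which like Kif5a was called higher in both groups with TSA (chr3:54441057-54441306, plus strand). The last is Klc1, the higher of the light chains described as members (chr6:136644350-136644599, plus strand, the first start site). Capitals mark matches on either strand to the motifs searched.
Kif5b: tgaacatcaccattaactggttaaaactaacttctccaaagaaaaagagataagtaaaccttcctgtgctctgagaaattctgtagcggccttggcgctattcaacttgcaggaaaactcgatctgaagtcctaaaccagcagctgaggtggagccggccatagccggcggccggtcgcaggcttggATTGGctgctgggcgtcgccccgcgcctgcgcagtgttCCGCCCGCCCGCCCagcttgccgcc
Kif5c: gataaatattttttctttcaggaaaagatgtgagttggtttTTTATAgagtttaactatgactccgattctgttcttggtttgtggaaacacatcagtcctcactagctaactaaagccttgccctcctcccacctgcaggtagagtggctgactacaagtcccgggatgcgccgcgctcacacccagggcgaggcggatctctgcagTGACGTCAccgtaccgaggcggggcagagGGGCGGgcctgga
Klc1: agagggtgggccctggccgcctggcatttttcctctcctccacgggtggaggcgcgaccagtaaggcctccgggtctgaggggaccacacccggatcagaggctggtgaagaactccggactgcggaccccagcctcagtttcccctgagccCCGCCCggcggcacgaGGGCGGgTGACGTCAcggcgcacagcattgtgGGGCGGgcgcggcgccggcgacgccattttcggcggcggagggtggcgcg

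The motifs were searched on both strands in windows of 300 bases. They were the GC box GGGCGG, the CCAAT box, the TATA box TATAAA, the E-box CACGTG, the left part TTCAGCACC and the right part GGACAG of the RE1 element that the repressor REST binds, the cyclic AMP response element TGACGTCA and the AP-1 site TGACTCA. None of these matches overlaps one to another motif. The palindrome TGACGTCA lies 42 bases before the start of Kif5c and 75 bases before that of Klc1, and is held by 1.83% of 33469 rat promoters. Kif5b lacks it and holds 3 overlapping matches to GGGCGG, 17 to 25 bases before the start, and 1 to the CCAAT box (37.5% of promoters). The GC box, held by 33.1% of promoters, also occurs 1 time in Kif5c, 4 times in Klc1 and 3 times in Klc4. Klc4 alone of the genes searched holds TGACTCA, found in 4.63% of promoters, and neither part of RE1 (0.356% and 21.7% of promoters) was found in these windows. Kif5c also holds TATAAA (14.2% of promoters) on the reverse strand 209 bases before the start. The base composition ranged from 55.7% G and C in Kif5c to 72.7% in Klc1, against a median of 51.7% over all promoters. These are matches of letters, and no binding was measured.

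The first comparison is of TSA with no TSA, under phenylephrine and the control hairpin. Kif5a and Kif5c rose and Kif5b, Klc1 and Klc4 did not pass the test. Kif5a averaged 23.7 ± 2.4 FPKM in PE+TSA and 0.577 ± 0.057 in PE (SD, n = 2 each), 41.0 times as high. Its log2 change was 3.96 ± 0.33 (SE, limma adjusted p = 0.0169), the 31st largest rise of all features tested. Kif5c averaged 6.28 ± 1.46 FPKM in PE+TSA and 0.680 ± 0.108 in PE, 9.24 times as high, with a log2 change of 2.10 ± 0.30 (limma adjusted p = 0.0461). Changes are given on the log2(FPKM + 1) scale, and for genes under 1 FPKM, as these were in PE, it understates the change. Both reached the mean of 1 FPKM needed for the test only through the groups with TSA.

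Kif5b averaged 190 ± 58 FPKM in PE+TSA and 280 ± 38 in PE, with a log2 change of -0.58 ± 0.36 (95% interval -1.46 to 0.30, limma adjusted p = 0.421). Klc1 averaged 127 ± 16 FPKM in PE+TSA and 93.3 ± 3.0 in PE, with a change of 0.43 ± 0.20 (interval -0.06 to 0.92, limma adjusted p = 0.318). Klc4 averaged 6.07 ± 0.07 FPKM in PE+TSA and 7.07 ± 0.86 in PE, with a change of -0.19 ± 0.26 (interval -0.82 to 0.44, limma adjusted p = 0.722). Of the 5 members, 2 were called, both higher, where 0.811% of all features were called (0.627% higher and 0.183% lower) and 18.7% had an unadjusted p under 0.05. The groups did not overlap for any of the 5 members, 3 being higher and 2 lower, as for 50.6% of all features (29.5% higher and 21.1% lower). The median change was 0.43 over the members and 0.10 over all features.

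The rise of Kif5a with TSA kept its size without any 1 library (3.86 to 4.06 on the log2 scale), but passed only without PE replicate 1 (limma adjusted p = 0.0268). It missed without PE replicate 2 (0.106), PE+TSA replicate 1 (0.097) or 2 (0.211), or PE+TSA+shJIP1 replicate 1 (0.086) or 2 (0.0928). Kif5c changed by 1.90 to 2.31 and missed in all 6 cases: without PE replicate 1 (adjusted p = 0.0549) or 2 (0.182), PE+TSA replicate 1 (0.166) or 2 (0.400), or PE+TSA+shJIP1 replicate 1 (0.153) or 2 (0.155). The values of PE replicate 2 rest on fewer reads than those of PE replicate 1. By the relative depth, 1 read of Kif5a there corresponds to 23.9 reads in PE replicate 1, and 1 read of Kif5c to 26.0. The absolute numbers of reads are not known.

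The second comparison sets the JIP1 hairpin against the control hairpin, with phenylephrine and TSA in both groups. No member passed the test. Kif5a averaged 3.70 ± 1.42 FPKM in PE+TSA+shJIP1 and 23.7 ± 2.4 in PE+TSA (SD, n = 2 each), with a log2 change of -2.42 ± 0.33 (95% interval -3.22 to -1.62, unadjusted p = 0.000267, limma adjusted p = 0.0628). It was the 55th most negative change of the 10359 features. Kif5c averaged 16.5 ± 1.9 FPKM in PE+TSA+shJIP1 and 6.28 ± 1.46 in PE+TSA, with a change of 1.28 ± 0.30 (interval 0.548 to 2.002, unadjusted p = 0.00488, limma adjusted p = 0.151), larger than that of 98.1% of features. Kif5a was lower and Kif5c higher in both PE+TSA+shJIP1 libraries than in either PE+TSA library.

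The remaining chains changed by less than their standard error in this comparison. Kif5b averaged 241 ± 101 FPKM in PE+TSA+shJIP1 and 190 ± 58 in PE+TSA, a change of 0.31 ± 0.36 (interval -0.57 to 1.19, limma adjusted p = 0.749), with overlapping groups. Klc1 averaged 114 ± 15 FPKM in PE+TSA+shJIP1 and 127 ± 16 in PE+TSA, a change of -0.15 ± 0.20 (interval -0.64 to 0.34, limma adjusted p = 0.784), also with overlap. Klc4 averaged 6.62 ± 0.61 FPKM in PE+TSA+shJIP1 and 6.07 ± 0.07 in PE+TSA, a change of 0.11 ± 0.26 (interval -0.52 to 0.74, limma adjusted p = 0.89). With none of 5 members called by limma, 2 had an unadjusted p under 0.05. Of all features 0.29% were called (0.183% higher and 0.106% lower) and 14.9% had such a p. The groups did not overlap for 3 of 5 members, 2 higher and 1 lower, and for 50.0% of all features (24.9% higher and 25.1% lower). The median change was 0.11 over the members and -0.003 over all features.

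**Figure D2:**
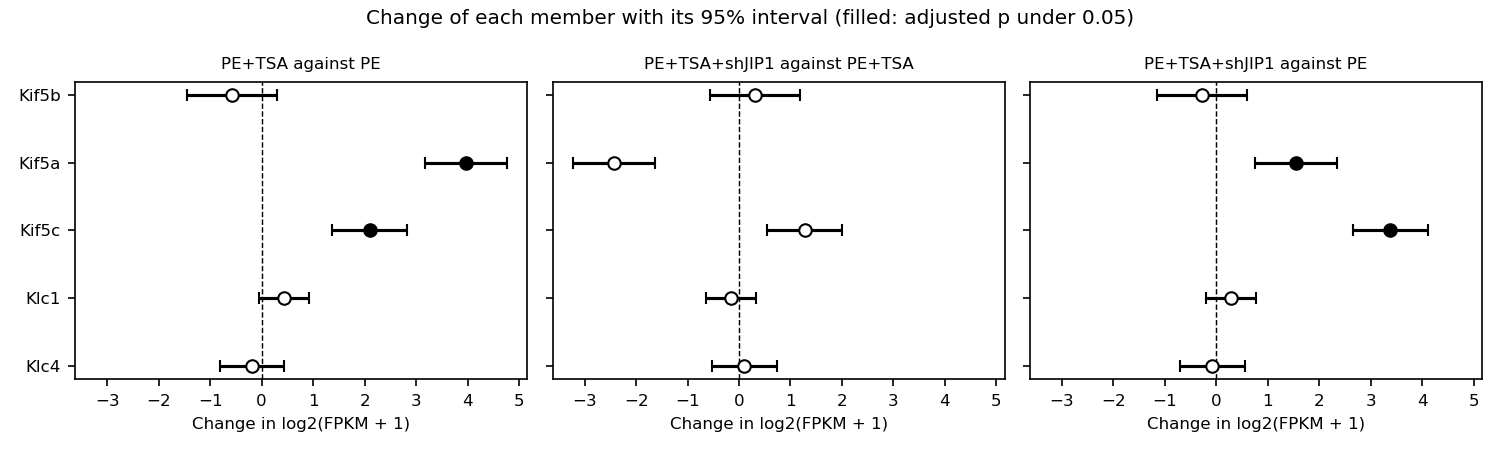
Change of each member on the log2(FPKM + 1) scale in the 3 comparisons; points are limma estimates, bars 95% intervals, and filled points passed an adjusted p of 0.05. Kif5a and Kif5c are filled in the comparisons with PE, and in the hairpin comparison Kif5a lies at -2.42 and Kif5c at 1.28, both unfilled.

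Against PE, TSA with the JIP1 hairpin again left Kif5a and Kif5c higher; this comparison shares its libraries with the other 2. Kif5c averaged 16.5 ± 1.9 FPKM in PE+TSA+shJIP1 and 0.680 ± 0.108 in PE, 24.3 times as high (log2 change 3.38 ± 0.30, limma adjusted p = 0.0108). Kif5a averaged 3.70 ± 1.42 FPKM in PE+TSA+shJIP1 and 0.577 ± 0.057 in PE, 6.41 times as high (1.54 ± 0.33, limma adjusted p = 0.0436). Kif5b (-0.27 ± 0.36, interval -1.15 to 0.60), Klc1 (0.28 ± 0.20, interval -0.21 to 0.77) and Klc4 (-0.08 ± 0.26, interval -0.71 to 0.55) did not pass (limma adjusted p = 0.642, 0.384 and 0.859). Of 5 members 2 were called, both higher, where 8.27% of all features were called (4.11% higher and 4.16% lower) and 30.7% had an unadjusted p under 0.05. The groups did not overlap for 3 members, all higher, and for 60.6% of all features (33.9% higher and 26.7% lower). The median change was 0.28 over the members and 0.10 over all features.

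Kif5c passed here without PE replicate 1 (limma adjusted p = 0.0219), and missed without PE replicate 2 (0.0601), PE+TSA replicate 1 (0.0515) or 2 (0.0512), or PE+TSA+shJIP1 replicate 1 (0.0903) or 2 (0.11), with a change of 3.27 to 3.49 throughout. Kif5a changed by 1.23 to 1.86 and missed without PE replicate 1 (adjusted p = 0.0702) or 2 (0.129), PE+TSA replicate 1 (0.0975) or 2 (0.0979), or PE+TSA+shJIP1 replicate 1 (0.115) or 2 (0.212).

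**Figure D3:**
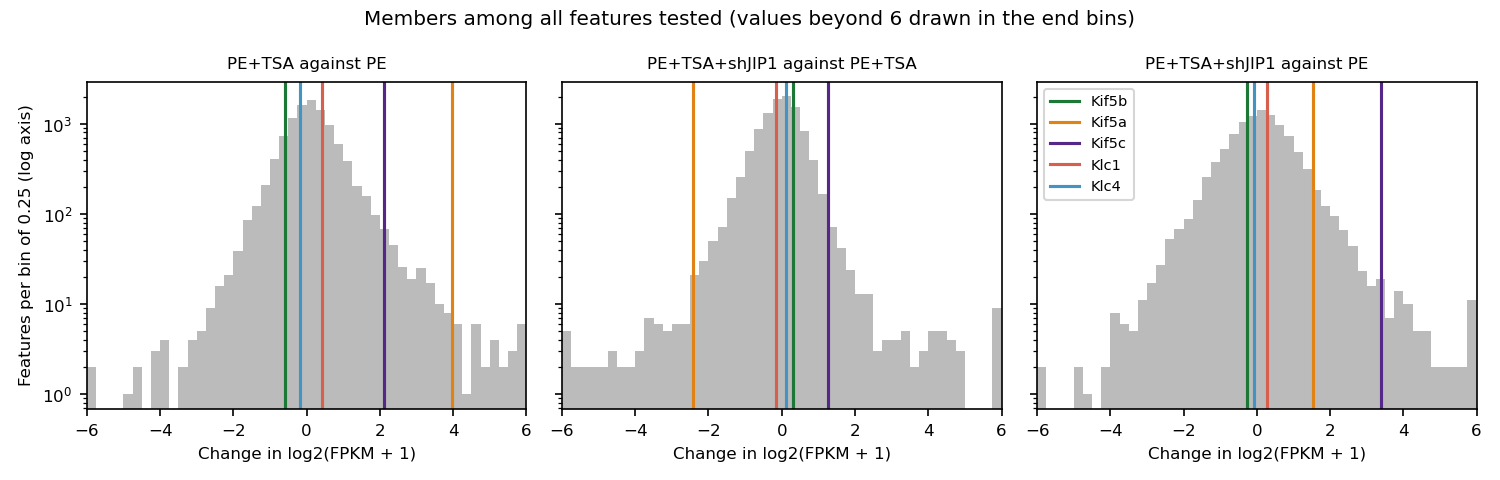
Distribution of the log2(FPKM + 1) change over the 10359 features tested (grey bars, features per bin, log axis) in the 3 comparisons, with a coloured line for each member. Kif5a and Kif5c lie toward the tails, with Kif5a as the 31st largest rise in PE+TSA against PE. In PE+TSA+shJIP1 against PE, Kif5a is less far out, with 94.3% of features at a lower change. Kif5b, Klc1 and Klc4 lie nearer the centre, the farthest being Kif5b in PE+TSA against PE, where 13.3% of features had a lower change.

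The make-up of the heavy chain pool differed with the group. Kif5b made up 94.6% and 88.3% of the summed heavy-chain FPKM in PE+TSA+shJIP1, 89.5% and 82.0% in PE+TSA and, in PE, 99.6% and 99.6%. Kif5a made up 0.814% and 2.45% in PE+TSA+shJIP1, 8.48% and 14.0% in PE+TSA and, in PE, 0.201% and 0.211%. Kif5c made up 4.58% and 9.29% in PE+TSA+shJIP1, 2.03% and 4.03% in PE+TSA and, in PE, 0.246% and 0.237%. Together Kif5a and Kif5c held a larger share in every library with TSA than in either PE library. Their shares in PE+TSA+shJIP1 (5.40% and 11.7%) and PE+TSA (10.5% and 18.0%) overlapped.

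The ratio of Kif5c to Kif5a separated the groups without overlap: it was 5.63 and 3.79 in PE+TSA+shJIP1, 0.239 and 0.288 in PE+TSA and, in PE, 1.23 and 1.13. The PE ratios are quotients of values under 1 FPKM, and that of PE replicate 2 rests on fewer reads than that of PE replicate 1. Sums, shares and ratios are descriptions, since an exact permutation test of 2 libraries against 2 cannot give a two-sided p below 0.333. The total of the heavy chains was 331 and 192 FPKM in PE+TSA+shJIP1, 259 and 182 in PE+TSA and, in PE, 308 and 254. That of Klc1 and Klc4 was 110 and 132 FPKM in PE+TSA+shJIP1, 122 and 144 in PE+TSA and, in PE, 98.9 and 102. This light-chain total leaves out Klc2 and Klc3. The heavy-chain total was 3.01 and 1.46 times the light-chain total in PE+TSA+shJIP1, 2.12 and 1.26 times in PE+TSA, and 3.11 and 2.50 times in PE. This ratio was lower in both PE+TSA libraries than in either PE library, and that of PE+TSA+shJIP1 spanned most of the range.

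**Figure D4:**
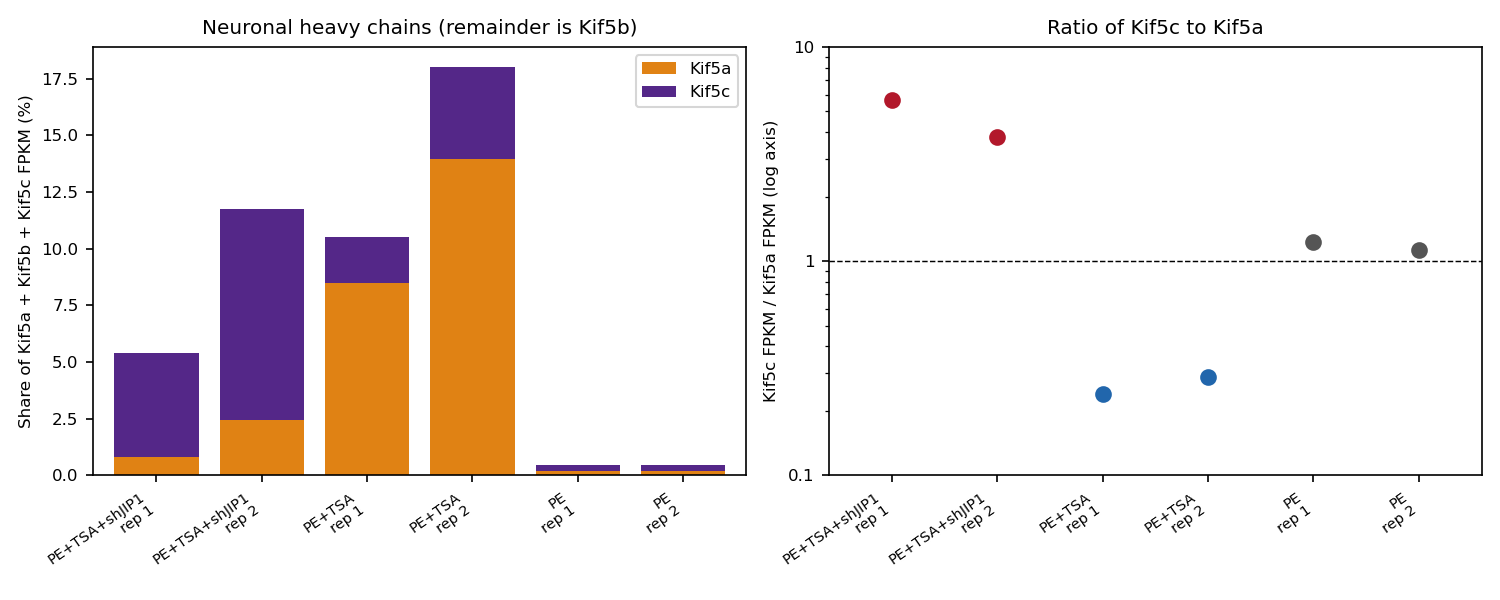
Left, share of the summed heavy-chain FPKM held by Kif5a and Kif5c in each library (stacked bars, percent; the remainder is Kif5b); right, ratio of Kif5c to Kif5a (log axis, dashed line at equal levels). Their joint share is 5.40% to 18.0% in the libraries with TSA and under 1% in PE, and the ratio lies below 1 in PE+TSA and at 5.63 and 3.79 in PE+TSA+shJIP1.

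The higher Kif5b library was 1.85 times the lower in PE+TSA+shJIP1, 1.55 times in PE+TSA and 1.21 times in PE, against 1.02 to 1.20 times for Klc1 and Klc4. In each group the library numbered 1 was the higher for Kif5b and the lower for Klc1. The summed level of the 8 cardiomyocyte markers ran in the order of Kif5b within each group, but not across groups. It was 7498 and 3928 FPKM in PE+TSA+shJIP1, 7917 and 4470 in PE+TSA and, in PE, 14121 and 11774. In PE, Myh7 (488 and 498 FPKM) and Ryr2 (67.7 and 70.6 FPKM) ran against Kif5b, and the other markers did not. The part of these markers in the level of Kif5b was not tested. In RNA from whole cultures, fewer cells of a type and less RNA per cell cannot be told apart.

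The summed level of markers of neurons and neuroendocrine cells was higher in every library with TSA than in PE, as Kif5a and Kif5c were, and lower in both PE+TSA+shJIP1 libraries than in either PE+TSA library, as Kif5a was and Kif5c was not. The sum over 18 rows of 15 genes was 117 and 144 FPKM in PE+TSA+shJIP1, 152 and 169 in PE+TSA and, in PE, 52.7 and 39.4. In PE+TSA replicate 1 it includes 23.0 FPKM from 1 listing of Syt1, which was at 0 in PE+TSA replicate 2. Without that row the sums of PE+TSA+shJIP1 and PE+TSA would overlap. The highest listing of Chat ran the other way, at 45.2 and 52.0 FPKM in PE+TSA+shJIP1 and 37.9 and 41.2 in PE+TSA. Of the 18 rows 13 and 13 were above 1 FPKM in PE+TSA+shJIP1, 14 and 16 in PE+TSA and, in PE, 6 and 5. Snap25, of synaptic vesicle release, was called higher in PE+TSA than in PE (limma adjusted p = 0.00308), at 39.3 and 49.9 FPKM in PE+TSA and 0.220 and 0 in PE. In PE+TSA+shJIP1 it was at 20.0 and 21.8 FPKM, a change against PE+TSA of -1.05 ± 0.26 that did not pass (limma adjusted p = 0.163). Of 14 marker rows tested, Snap25 alone passed with TSA and none with the hairpin, where 0.811% and 0.29% of all features passed. In PE+TSA+shJIP1 against PE, Prph, Snap25, Syp and 1 listing of Syt1 were called higher, where 4.11% of all features were. An unadjusted limma p under 0.05 was held by 11, 2 and 8 rows in these comparisons, against 18.7%, 14.9% and 30.7% of all features. With TSA 13 rows rose and 1 fell, with a median change of 1.65 (0.10 over all features). With the hairpin 5 rose and 9 fell, with a median of -0.25 (-0.003 over all features). Snap25, Stmn2, Syp and Syt1, near 0 in PE, reached the mean of 1 FPKM needed for the test only through the groups with TSA. A row this low in PE could enter only by being higher with TSA. Against PE, the counts of rises and of unadjusted p, and the median, partly follow from that filter. Th, the rate-limiting enzyme of catecholamine synthesis, was listed at 0 in all 6 libraries, and Elavl3, Stmn2 and Syp at 0 in both PE libraries. The Schwann cell markers summed to 2.34 and 1.81 FPKM in PE+TSA+shJIP1, 3.31 and 2.72 in PE+TSA and, in PE, 0.896 and 2.73, with Sox10 at 0 or 0.0298 FPKM. Fibroblast markers summed to 500 and 640 FPKM in PE+TSA+shJIP1, 479 and 699 FPKM in PE+TSA, and 980 and 1545 FPKM in PE, with Col1a1 the largest part. Of 6 fibroblast markers tested, 1 rose and 5 fell with TSA, with a median change of -0.72 (0.10 over all features). Col1a1, Col3a1 and Dcn changed by -1.19, -1.58 and -0.84 and did not pass (limma adjusted p from 0.116 to 0.194), and Pdgfra changed by -0.06 ± 0.36. Thy1, also made by neurons, was called higher with TSA (limma adjusted p = 0.0373), where 0.627% of all features were. It was at 10.9 and 17.3 FPKM in PE+TSA+shJIP1, 20.9 and 24.7 FPKM in PE+TSA, and 3.29 and 1.56 FPKM in PE. In PE+TSA+shJIP1 against PE, Thy1 was called higher and Dcn lower, where 4.11% and 4.16% of all features were. Smooth muscle markers summed to 498 and 479 FPKM in PE+TSA+shJIP1, 382 and 242 FPKM in PE+TSA, and 1623 and 1291 FPKM in PE. Acta2 was called lower in PE+TSA than in PE (limma adjusted p = 0.0332), where 0.183% of all features were. Of 4 endothelial markers tested, 2 rose and 2 fell with TSA, 1 rose and 3 fell with the hairpin, and none passed in any comparison. Kdr, a receptor among them, was at 3.72 and 4.57 FPKM in PE+TSA+shJIP1, 11.9 and 30.1 FPKM in PE+TSA, and 10.3 and 6.87 FPKM in PE (limma adjusted p from 0.149 to 0.274). The part of these cell types in the levels of Kif5a and Kif5c was not tested.

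Across the 6 libraries the log2 level of Kif5a had a Pearson correlation of 0.82 with Mapk8ip1 and of 0.87 with Klc1, while Kif5c had -0.05 with Mapk8ip1 and 0.68 with Klc1. Kif5b ran against Klc1 (-0.91). These values describe 6 libraries in 3 groups and carry no test. Features close to Kif5a were RGD1307947 and Syn1, a synaptic vesicle protein (0.994 and 0.991). Those closest to Kif5c were Flot1, a membrane scaffold, Mtf2, a Polycomb-associated factor, and Pycr1, of proline synthesis (0.997, 0.997 and 0.996). Closest to Kif5b were Atp5j2, an ATP synthase subunit, the protease Capn2, and Qpctl (0.989, 0.988 and 0.986). Closest to Klc1 were Mapre3, a protein of microtubule plus ends, Ppm1j and Megf9 (0.994, 0.993 and 0.991), and closest to Klc4 were Clk2, Ddr1 and Mbnl1 (0.979, 0.971 and 0.970).

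Adaptors and regulators of kinesin-1, other transport kinesins and mitotic kinesins were described as 3 lists. Of 35 adaptors and regulators, 26 were tested. None passed limma's test with TSA or with the hairpin, where 8 and 8 had an unadjusted p under 0.05, against 18.7% and 14.9% of all features. Mapk8ip1, the target of the hairpin, belongs to the list and is in both of these counts. In PE+TSA+shJIP1 against PE, 5 were higher and 2 lower, where 4.11% and 4.16% of all features were, and 15 had an unadjusted p under 0.05, against 30.7% of all features. The 5 were Clstn1 and Clstn3, calsyntenins that bind the light chains, Hap1, a huntingtin partner, and Map7 and Map7d2, microtubule proteins that recruit kinesin-1. Clstn3, at 0.239 and 0 FPKM in PE, reached the mean of 1 FPKM needed for the test only through the groups with TSA. Clstn1 was at 33.7 and 39.6 FPKM in PE+TSA+shJIP1, 27.8 and 29.0 in PE+TSA and, in PE, 10.2 and 11.9 (1.64 ± 0.21 against PE, limma adjusted p = 0.016). The 2 lower genes were Plekhm2, which links lysosomes to the light chains, and Trak2, which links mitochondria to the heavy chains. Trak2 was at 24.7 and 21.4 FPKM in PE+TSA+shJIP1, 63.2 and 41.9 FPKM in PE+TSA, and 71.0 and 50.7 FPKM in PE (-1.35 ± 0.28 against PE, limma adjusted p = 0.0416). Plekhm2 was at 8.85 and 8.70 FPKM in PE+TSA+shJIP1, 14.0 and 14.0 in PE+TSA and, in PE, 25.8 and 26.1 (-1.46 ± 0.21 against PE, limma adjusted p = 0.019). The median change of the list was 0.25 with TSA, 0.11 with the hairpin and 0.56 for both against PE, where that of all features was 0.10, -0.003 and 0.10.

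Klc3, a light chain known from sperm, belonged to the adaptor list and was at 2.19 and 1.83 FPKM in PE+TSA+shJIP1, 0.616 and 2.18 in PE+TSA and, in PE, 0.207 and 0, and did not pass (limma adjusted p from 0.110 to 0.755). Of 14 other transport kinesins tested, none passed with TSA or the hairpin (4 and 2 at an unadjusted p under 0.05, with the same 18.7% and 14.9% over all features). Kif3a, a motor subunit of kinesin-2, was the only 1 of the 14 called in PE+TSA+shJIP1 against PE (1.38 ± 0.27, limma adjusted p = 0.0357). It was higher there, as were 4.11% of all features. Its level was 32.8 and 34.3 FPKM in PE+TSA+shJIP1, 13.3 and 20.9 FPKM in PE+TSA, and 13.2 and 11.3 FPKM in PE. An unadjusted p under 0.05 was held by 4 of the 14 in that comparison, against 30.7% of all features. The list's median change was 0.35 with TSA, -0.03 with the hairpin and 0.52 for both against PE, beside 0.10, -0.003 and 0.10 over all features. Of 10 mitotic kinesins, Kif11, Kif20a and Kif2c were lower in PE+TSA+shJIP1 than in PE (limma adjusted p from 0.0317 to 0.0484), where 4.16% of all features were, and none passed in the other comparisons (4 with TSA and 2 with the hairpin at an unadjusted p under 0.05, against 18.7% and 14.9% of all features). Their median change was -0.96 with TSA, -0.57 with the hairpin and -1.76 for both against PE, beside 0.10, -0.003 and 0.10 over all features.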

How the data were processed

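RNA was extracted with a commercial kit and sequenced from Illumina libraries, per the labels' protocols. Expression values of the 6 libraries are FPKM in a single table the authors deposited, whose header names no unit. Per the submitters' processing notes, Cufflinks was among the tools and rn6 was the build. The sources used here do not give the aligner, annotation, filters or strandedness. Reads of paralogs or overlapping genes may therefore be mixed, and total depth is unknown. Libraries were grouped by title.

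Features averaging 1 FPKM or more (10359 of 13843) were fitted as log2(FPKM + 1) with limma 3.58.1 in R 4.3.3, with 1 mean per group over all 6 libraries and a prior variance that follows the level (3 residual and 3.27 prior degrees of freedom). P-values are two-sided, adjusted by Benjamini and Hochberg over all features within a comparison, with a threshold of 0.05; the 95% intervals of changes are unadjusted. The script was tested on simulated data. Fits without 1 library kept the same features.

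Relative depth came from the most frequent ratio of values under 0.3 FPKM and, for PE replicate 2, from the depth at which 27 of 590 features had values within 0.05 of whole reads in the 5 other libraries, against at most 3 at depths away from it and its simple multiples.

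The members, gene lists and rules for naming genes were chosen with earlier results of these data known. Named were all members, Mapk8ip1, called genes of the lists, and the 3 features with the highest Pearson correlation to each member, of which 1 is not reported here; single markers and Klc3 were named after their values were seen. Alternatives were other pseudocounts, filters, scalings and priors, fits on the groups compared, the replicate number as a block, summed rows, and leaving out each library.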

Additional observations from a re-analysis of the deposited data

How the results depend on the processing

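Under the 16 alternatives, Kif5a, Kif5c and Klc1 kept the direction of their change in the 3 comparisons, but the number of calls moved. With TSA, 84 features and 2 members were called. There were 14 features and 1 member with no filter on low values, 1 member with a filter of 5 FPKM and 1 with quantile normalization, 5 features and 0 members with only the groups compared, 36 and 1 with a constant prior variance, and 28 and 1 with the replicate block. Where 1 member was called it was Kif5a. Leaving out 1 library gave 6 to 203 features, the most without PE replicate 1, and 0 to 1 members. With the hairpin 30 features and no member were called, with 1 feature for no filter, 8 for only the groups compared, 2 for a constant prior variance, 18 for the replicate block and 7 to 16 without 1 library. For both against PE, 857 features and 2 members were called. There was 1 member with no filter, with a filter of 5 FPKM and with quantile normalization (Kif5c in each), 4 features and 0 members with only the groups compared, and 0 to 1 members without 1 library. Features numbered 941 without PE replicate 1, and 4 to 19 without any other library. Fits with fewer libraries have fewer residual degrees of freedom, and a group left with 1 library is assumed to vary like the others.

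A pseudocount of 0.1 FPKM gave larger changes with TSA (5.13 for Kif5a and 3.02 for Kif5c) and for both against PE (2.44 for Kif5a and 4.41 for Kif5c). The change of Kif5a with TSA was 3.60 with quantile normalization, and its change with the hairpin was -2.74 to -2.11 with an adjusted p from 0.0571 to 0.314. The replicate block ended the call of Kif5c with TSA (adjusted p = 0.0703) and of no other member. The numbers were not taken to pair libraries because the labels do not say that they do. The deviations of same-numbered libraries correlated at 0.122, 0.040 and 0.074 across features, which cannot exclude a pairing. With the block, the SE of the change with TSA was 0.20 for Kif5b, against 0.36 without it, and 0.16 for Klc1, against 0.20. Neither passed with the block (limma adjusted p = 0.199 and 0.215). Kif5b with the hairpin lay between -0.13 (without PE+TSA+shJIP1 replicate 1) and 0.75 (without PE+TSA+shJIP1 replicate 2) and was -0.0076 without PE+TSA replicate 2. For both against PE, Kif5b lay between -0.72 and 0.17 (without PE+TSA+shJIP1 replicate 1 and 2), and Klc4 between -0.19 and 0.029 (without PE replicate 2 and 1), with 0.0010 without PE+TSA+shJIP1 replicate 1. Quantile normalization moved the median change of all features with TSA to -0.02, against 0.10 as deposited. Each heavy-chain and light-chain sum moved by less than 1 SD under trimmed-mean scaling, which cancels in a share. With 1 row per member and 2 libraries per group, the highest listing of each symbol and leaving out a library could not move sums or shares by more. With 2 libraries per group and 1 of them 20.8 times shallower, small changes of Kif5b, Klc1 and Klc4 could not be resolved.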
